A study of Mus musculus with 2 samples.

Results

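TRAV7 is a subgroup of V genes of the mouse T cell receptor (TCR) alpha chain, and its chains were taken here from single-cell TCR libraries of thymic CD4 single positive (SP) T cells. A member was every assembled TRA chain whose V gene was called TRAV7, TRAV7D or TRAV7N, and the rule gave 526 of 3782 TRA chains. The WT library, from C57BL/6J mice, held 236 TRAV7 chains among 1862 TRA chains. The Btla-/- library, from C57BL/6-Btla KO mice that lack the inhibitory receptor BTLA, held 290 among 1920. Mice of both groups were 8 to 12 weeks old and untreated as far as the labels say, and the cells were enriched from thymocytes by negative selection for naive CD4 T cells. The number of mice behind each library was not given, so each genotype was 1 sample, and no difference between the genotypes has a replicate check, a test or a p-value. The libraries hold TCR transcripts only, so neither the CD4 SP identity of the cells nor the loss of Btla could be checked against marker transcripts.

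An alpha chain is made in the thymus by joining 1 TRAV gene to 1 TRAJ segment. The V gene encodes the complementarity-determining regions CDR1 and CDR2, which mostly face the MHC molecule. CDR3 spans the V to J join, where germline bases are trimmed and untemplated bases are added, and mostly faces the peptide. Rearrangement starts between 3′ TRAV genes and 5′ TRAJ segments, which have high numbers, and repeated rounds on the same chromosome move to V genes further 5′ and to TRAJ segments further 3′, which have low numbers. In C57BL/6 mice a large part of the TRAV array is present in several copies, marked by no suffix, D or N, so that the TRAV7 genes are spread among these copies. Shares below are given with exact (Clopper-Pearson) 95% intervals, which cover counting error only.

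The GRCm38 annotation places 14 TRAV7 genes on the plus strand of chromosome 14, over 1062 kb. All of them lie 5′ of the TRAJ cluster, and 11 of them were called in each library. TRAV7-1 lies furthest away, 1501 kb from the cluster (chr14:52655052-52655328), and TRAV7-6 nearest, at 439 kb (chr14:53717015-53717291). These coordinates cover the V region after the leader, within the V exon. The 3 genes that were never called, TRAV7-2, TRAV7D-5 and TRAV7D-6, are identical in this region to TRAV7D-2, TRAV7N-5 and TRAV7N-6. The bases of this region cannot tell these copies apart, and the leader and the bases 5′ of it were not compared. In all, 209 chains, or 39.7% of the 526, were called to a gene with such a copy. Over the 264 bases from framework 1 to the end of framework 3, 525 of the 526 contigs equalled the germline of their called gene. The exception was a WT chain of TRAV7D-2 with TRAJ49, which had 5 UMIs (unique molecular identifiers, 1 per captured transcript) and differed at 1 base. Called genes differed from each other at 1 to 47 of the 264 bases. The closest pairs were TRAV7-4 and TRAV7D-4 with 1 different base, TRAV7N-4 and TRAV7D-4 with 2, TRAV7-3 and TRAV7D-3 with 2, TRAV7N-4 and TRAV7-4 with 3, TRAV7-6 and TRAV7N-6 with 9, and TRAV7-5 and TRAV7N-5 with 13.

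The CDR1 sequences show how members differ at the part of the receptor that the V gene fixes. The 11 called genes had 9 distinct CDR1 sequences, each of 18 bases. They are given here as read in the contigs, which equal the GRCm38 genome at these bases, with capitals for bases that differ from TRAV7-1.
TRAV7-1: gatcgtaattctcagtat
TRAV7D-2: gatcgtaatGTtGaCtaC
TRAV7-3 and TRAV7D-3: gaCAgtGCttctcagtat
TRAV7-4 and TRAV7D-4: gatcgtaattTtcagtaC
TRAV7N-4: gatcgtaattTtcagtat
TRAV7-5: gatGgtaCttctAaCAaC
TRAV7N-5: gatcgtTCttctGaCAaC
TRAV7-6: gaCAgtGCttctcagtCC
TRAV7N-6: AaCAgtGCttctcagtCC
These encode 8 different CDR1 peptides of 6 residues, since the change between TRAV7-4 and TRAV7N-4 is silent. CDR2 varied less, with 6 sequences and 5 peptides among the 11 genes.

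The germline start of CDR3, up to the recombination signal, came in 4 forms, which set the first residues of most chains.
TRAV7-1, TRAV7-3, TRAV7D-3, TRAV7-5, TRAV7N-5, TRAV7-6 and TRAV7N-6: tgtgcagtgagca
TRAV7D-2: tgtgcagcaagca
TRAV7-4 and TRAV7D-4: tgtgcagctagtgagca
TRAV7N-4: tgtgcagttagtgagca
The first form, carried by 306 chains, encodes alanine, valine and serine after the conserved cysteine. The TRAV7D-2 form, in 108 chains, encodes alanine, alanine and serine. Genes numbered 4 start with 17 germline bases in place of 13, which adds a glutamate codon. Of these, TRAV7-4 and TRAV7D-4 (99 chains) encode a pair of alanines, and TRAV7N-4 (13 chains) encodes alanine and valine.

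A TRA chain was recovered in 1704 of 4040 WT cells and 1798 of 5077 Btla-/- cells. All shares of TRA chains here thus describe a minority of the cells. Among all TRA chains, TRAV7 accounted for 12.7% (11.2 to 14.3%) in WT and 15.1% (13.5 to 16.8%) in Btla-/- mice, with overlapping intervals. TRAV7 contigs were deeper in the WT library, and this moved with the difference. At least 3 UMIs were found in 77.5% (71.7 to 82.7%) of WT TRAV7 contigs, above the 67.5% (65.1 to 69.7%) of other WT TRA contigs. In the Btla-/- library the shares were 55.5% (49.6 to 61.3%) for TRAV7 and 54.4% (51.9 to 56.8%) for the others. When contigs with fewer than 3 UMIs were left out, the TRAV7 shares were 14.3% and 15.4%, so the difference was 1.08 percentage points in place of 2.43. The part of depth in the difference was not tested. TRAV7 contigs had a median of 4 UMIs (range 1 to 20) in WT and 3 (range 1 to 17) in Btla-/- mice, and a single UMI stood behind 24 and 44 of them.

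TRAV7D-2 was the most used member. It accounted for 22.5% (17.3 to 28.3%) of the WT TRAV7 chains and 19.0% (14.6 to 24.0%) of the Btla-/- ones, a share that includes any chain of the identical TRAV7-2. TRAV7-5 followed with 16.5% and 14.8%. TRAV7-4 had 12.7% and 11.03%, and TRAV7N-5 had 11.02% and 11.03%. The intervals of neighbours in this order overlap in each library, those of TRAV7D-2 and TRAV7-5 included. The largest fall from the WT to the Btla-/- library was that of TRAV7-6, from 9.32% (5.93 to 13.8%, 22 chains) to 3.79% (1.91 to 6.69%, 11 chains). The largest rise was that of TRAV7D-3, from 2.97% (1.20 to 6.02%, 7 chains) to 7.59% (4.82 to 11.3%, 22 chains). TRAV7D-4 had 5.51% and 8.28%, TRAV7N-6 had 6.36% and 9.66%, and TRAV7-3 had 9.75% and 7.24%. TRAV7-1, the gene furthest from the TRAJ cluster, had 1.69% and 4.48%, and TRAV7N-4 had 1.69% and 3.10%. The intervals of the 2 libraries overlapped for each of the 11 genes.

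Summed over the copies, genes without a suffix gave 118 of 236 TRAV7 chains in WT, or 50.0% (43.4 to 56.6%), and 41.4% (35.7 to 47.3%) in Btla-/-. The D copies held 30.9% and 34.8%, and the N copies 19.1% and 23.8%. Among contigs with 3 or more UMIs the gap in the D copies was wider, with 30.1% and 40.4%, and genes without a suffix had 50.3% and 37.3%. Genes grouped by number, which joins near-identical copies, differed less, and the largest difference was in number 2, with 22.5% and 19.0%. Number 5 was the most used after joining the copies, with 27.5% and 25.9%, and number 4 had 19.9% and 22.4%.

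**Figure D1:**
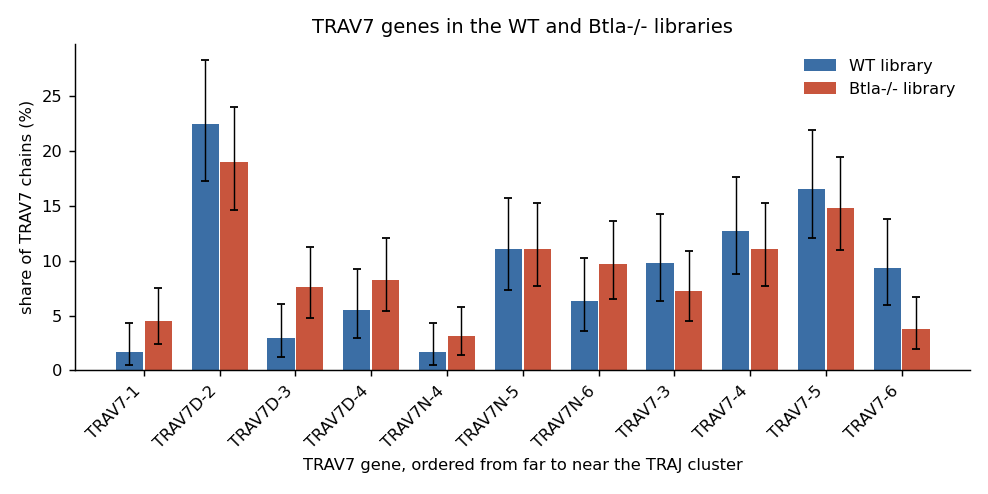
Share of TRAV7 chains (%) called to each gene in the WT (236 chains) and Btla-/- (290 chains) libraries, with genes ordered from far to near the TRAJ cluster; bars are shares and whiskers are exact 95% intervals. TRAV7D-2 stood highest in both libraries, TRAV7-6 showed the largest fall and TRAV7D-3 the largest rise, and the intervals of the libraries overlapped for every gene.

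Members differed widely in their TRAJ partners. TRAV7-6, the member nearest to the TRAJ cluster, was joined almost only to 5′ segments. Of its 22 WT chains, 1 used a segment from TRAJ1 to TRAJ30, and of its 11 Btla-/- chains also 1. The lowest segment was TRAJ26, the median over both libraries was TRAJ49, and 28 of the 33 chains used TRAJ42 or higher. TRAV7N-6, which differs from it at 9 of 264 bases, lies 831 kb from the cluster, or 1135 kb for its identical copy TRAV7D-6. It showed the opposite pattern, with TRAJ1 to TRAJ30 in 11 of 15 WT and 24 of 28 Btla-/- chains. Its median segment was TRAJ17 in each library, and 27 of its 43 chains used TRAJ1 to TRAJ20, against 0 of 33 for TRAV7-6. Over both libraries the TRAJ1 to TRAJ30 share was 6.06% (0.743 to 20.2%) for TRAV7-6 and 81.4% (66.6 to 91.6%) for TRAV7N-6, with intervals far apart. The chains of both genes start CDR3 from the same germline bases, and each contig of either gene equalled its own germline.

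The other near copies differed less. TRAV7-5, at 625 kb, used TRAJ1 to TRAJ30 in 50.0% (38.7 to 61.3%) of 82 chains, and TRAV7N-5, at 1009 kb or 1320 kb for its identical copy, in 56.9% (43.2 to 69.8%) of 58. TRAV7-4, at 694 kb, had 56.5% (43.3 to 69.0%) of 62 chains, and TRAV7D-4, at 1386 kb, had 73.0% (55.9 to 86.2%) of 37. TRAV7-3, at 712 kb, had 65.9% (50.1 to 79.5%) of 44 chains, and TRAV7D-3, at 1411 kb, had 69.0% (49.2 to 84.7%) of 29. In each of these pairs the copy further from the cluster had the higher share over both libraries, but the intervals overlap. In the WT library alone the order was turned for TRAV7-3 and TRAV7D-3, with 65.2% and 42.9%, and for TRAV7-4 and TRAV7D-4, with 60.0% and 53.8%. High shares were also found in the distant TRAV7-1, with 14 of 17 chains, and TRAV7N-4, at 1064 kb, with 11 of 13. TRAV7D-2, the most used member, had 62.0% (52.2 to 71.2%) of 108 chains. It lies 1472 kb from the cluster, or 765 kb for its identical copy TRAV7-2, so by the bases compared its chains cannot be placed as distant or near.

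**Figure D2:**
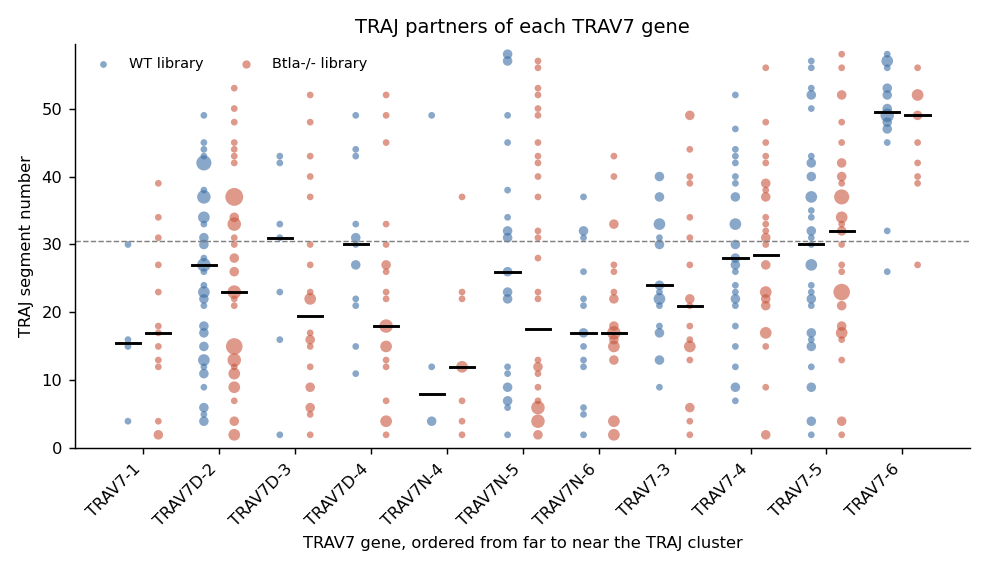
TRAJ segment number of each TRAV7 chain by gene, with genes ordered from far to near the TRAJ cluster; the area of a dot grows with the number of chains, black lines are medians, and the dashed line separates TRAJ30 from TRAJ31. TRAV7-6 lay almost wholly above the line in both libraries and its near copy TRAV7N-6 mostly below it.

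Over all members, 54.7% (48.1 to 61.1%) of the chains in WT and 63.8% (58.0 to 69.3%) in Btla-/- mice carried a segment from TRAJ1 to TRAJ30. The difference of 9.13 percentage points was close to the 9.15 points of all other TRA chains, which had 47.8% (45.3 to 50.2%) and 56.9% (54.5 to 59.4%). At this boundary the shift towards 3′ segments was thus not particular to TRAV7. For TRAJ1 to TRAJ20 the TRAV7 shares over all contigs were 28.4% (22.7 to 34.6%) and 42.8% (37.0 to 48.7%). These intervals lie apart, with a gap of 14.4 points. That share was not computed for other chains, so this gap cannot be called particular to TRAV7. The median segment of TRAV7 chains was TRAJ28 in WT and TRAJ23 in Btla-/- mice, and their lower quartile TRAJ17 and TRAJ13. Other TRA chains moved in the same direction, with medians of TRAJ31 and TRAJ26 and lower quartiles of TRAJ18 and TRAJ13. In each library TRAV7 used TRAJ1 to TRAJ30 more often than other chains did, with overlapping intervals. Only with both genotypes pooled did the intervals lie apart, at 59.7% (55.4 to 63.9%) for TRAV7 and 52.4% (50.6 to 54.1%) for the other chains. Some other subgroups were taken for comparison because they also have D or N copies. Of these, TRAV6 had 51.3% and 59.3%, TRAV12 had 44.7% and 62.4%, and TRAV14 had 44.1% and 55.9%. Pooled, TRAV6 had 55.3% (51.3 to 59.4%), TRAV12 had 53.7% (48.8 to 58.6%) and TRAV14 had 50.5% (45.3 to 55.7%). Each of these intervals overlaps that of TRAV7, so the higher share cannot be called particular to TRAV7.

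The mix of TRAV7 genes moved with this difference. Without TRAV7-6 the shares were 59.8% (52.9 to 66.4%) and 65.9% (60.1 to 71.5%), a gap of 6.14 points. The TRAJ use of each gene in the Btla-/- library was also weighted by the gene mix of the WT library. The Btla-/- share was then 57.7%, which left 3.07 of the 9.13 points. That weighted share has no interval and rests on few chains for some genes. The reverse weighting, of WT TRAJ use by the Btla-/- gene mix, was not computed. Among the 4 genes nearest to the TRAJ cluster (TRAV7-3, TRAV7-4, TRAV7-5 and TRAV7-6) the shares were 47.4% (37.9 to 56.9%) in WT, over 114 chains, and 49.5% (39.7 to 59.4%) in Btla-/-, over 107 chains. Among the 4 distant genes without an identical copy (TRAV7-1, TRAV7D-3, TRAV7D-4 and TRAV7N-4) they were 60.7% (40.6 to 78.5%) in WT, over 28 chains, and 80.9% (69.5 to 89.4%) in Btla-/-, over 68 chains. These intervals overlap, and TRAV7-1 went the other way, with 4 of 4 WT and 10 of 13 Btla-/- chains.

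**Figure D3:**
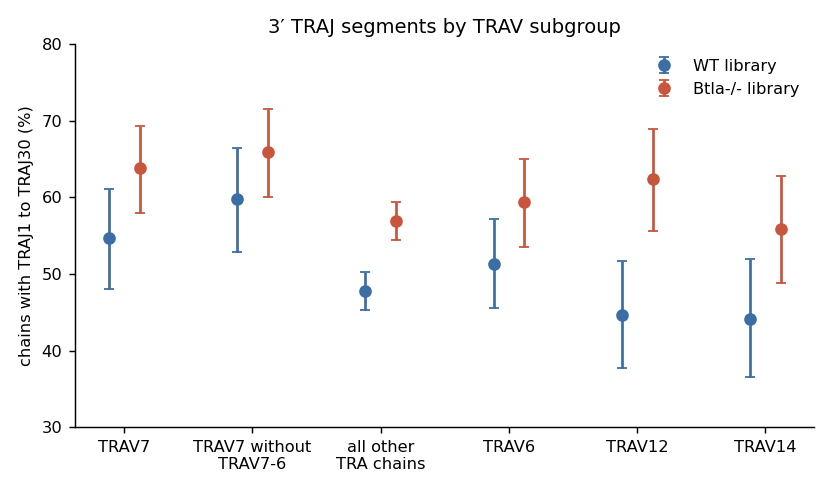
Share of chains (%) that used TRAJ1 to TRAJ30, for TRAV7, TRAV7 without TRAV7-6, all other TRA chains, and the subgroups TRAV6, TRAV12 and TRAV14 in each library; points are shares, whiskers are exact 95% intervals, and the axis starts at 30%. The Btla-/- point lay above the WT point in each of the 6 sets, and for TRAV7 the points were 54.7% and 63.8%.

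TRAV7 chains used 43 TRAJ segments in WT and 40 in Btla-/- mice. TRAJ24, TRAJ35 and TRAJ47 were not found among the 290 Btla-/- TRAV7 chains, and a count of 0 allows a share of up to 1.03%, taken as 3 counts of the total, or 1.26% by the exact interval. In the WT library the most used were TRAJ22 with 5.51%, TRAJ37 with 5.08%, TRAJ27 with 4.66% and TRAJ31 with 4.24% of TRAV7 chains. In the Btla-/- library they were TRAJ23 with 6.55%, TRAJ15 with 6.21%, and TRAJ2, TRAJ4 and TRAJ37 with 5.86% each. The largest differences were rises of 3′ segments. TRAJ2 (chr14:54217836-54217901) went from 4 WT chains, or 1.69% (0.464 to 4.28%), to 17 Btla-/- chains, or 5.86% (3.45 to 9.22%). TRAJ4 (chr14:54216291-54216353) went from 2.97% to 5.86%, and TRAJ15 (chr14:54204422-54204481) from 3.39% to 6.21%. Among the other TRA chains the same 3 segments had 1.41% and 4.66%, 2.28% and 4.60%, and 2.40% and 3.31%. There the intervals of the libraries lay apart for TRAJ2 (0.899 to 2.11% and 3.69 to 5.80%). They also lay apart for TRAJ4 (1.61 to 3.12% and 3.64 to 5.73%), and overlapped for TRAJ15. For TRAV7 the intervals of the libraries overlapped for every segment.

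CDR3 was on average 13.7 residues long in the WT library (SD 1.45 over 236 chains) and 13.8 in the Btla-/- library (SD 1.46 over 290 chains), counted from the conserved cysteine to the phenylalanine or tryptophan. Other TRA chains had means of 13.8 and 13.7. The most frequent length was 13 residues in the WT library, in 31.8% of chains, and 14 in the Btla-/- library, in 27.6%. Means of single members lay further apart than the means of the 2 libraries, but they rest on far fewer chains. Means of single members also moved between the libraries. TRAV7N-4, which starts from 17 germline bases, had a mean of 14.25 residues in 4 WT and 14.9 in 9 Btla-/- chains. TRAV7-4 and TRAV7D-4, with the same length of germline start, had means from 13.9 to 14.2. The shortest means were those of TRAV7-3, with 12.7 (SD 1.23) and 13.3 (SD 1.43), and its near copy TRAV7D-3, with 13.0 (SD 1.15) and 12.9 (SD 1.04). TRAV7-6 had 13.9 and 14.5, and TRAV7-5, with the longest mean of the WT library, had 14.31 and 13.8.

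**Figure D4:**
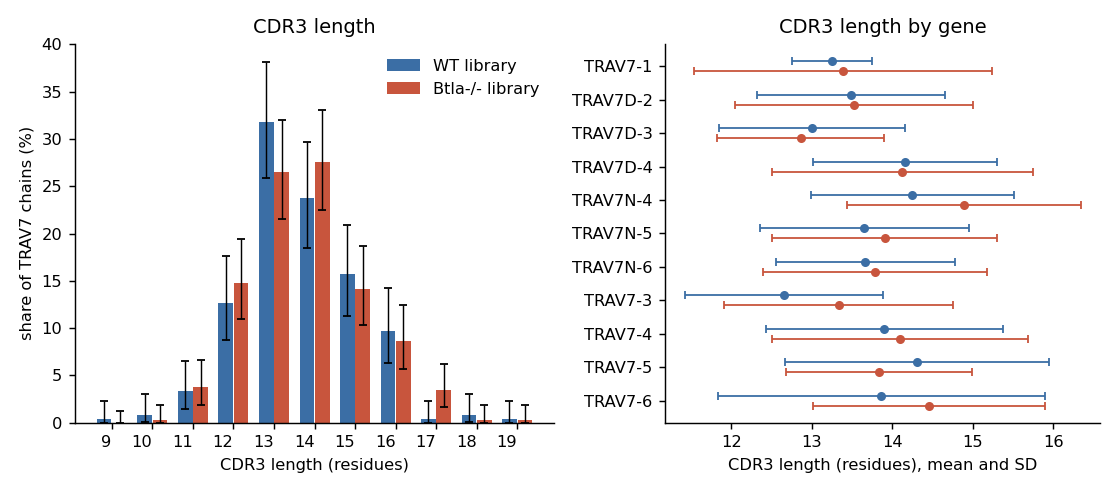
Left, share of TRAV7 chains (%) of each CDR3 length in residues, with exact 95% intervals; right, mean CDR3 length of each TRAV7 gene with SD over chains, genes ordered from far to near the TRAJ cluster. The peak was at 13 residues in WT and 14 in Btla-/- mice, and the lowest means were those of TRAV7-3 and TRAV7D-3.

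The start of CDR3 followed the germline of the called gene. Cysteine, alanine, valine and serine opened 32.2% (26.3 to 38.6%) of the TRAV7 chains in WT and 29.3% (24.1 to 34.9%) in Btla-/-, against 6.52% (5.37 to 7.83%) and 5.28% (4.24 to 6.48%) of other TRA chains. Cysteine followed by 2 alanines and serine opened 25.4% (19.997 to 31.5%) and 25.2% (20.3 to 30.6%), against 11.4% (9.93 to 13.1%) and 11.9% (10.4 to 13.6%). Both starts were thus more frequent among TRAV7 chains than among other chains in each library, and the intervals of the libraries overlapped for each. By gene, all 62 TRAV7-4 chains and 102 of 108 TRAV7D-2 chains had alanine at the positions after the cysteine. All 13 TRAV7N-4 chains had alanine and valine there, as did 72 of 82 TRAV7-5 and 31 of 33 TRAV7-6 chains. TRAV7D-3 kept its start least, with alanine and valine in 18 of 29 chains.

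Each chain was split into bases of the V gene, bases of the TRAJ segment and inserted bases that match neither, and the TRAJ segment was placed for all 526. The mean number of inserted bases was 2.93 (SD 2.29) in WT and 3.003 (SD 2.10) in Btla-/- mice, with a maximum of 11 and 14. No inserted base was needed for 42 WT chains, or 17.8% (13.1 to 23.3%), and 33 Btla-/- chains, or 11.4% (7.96 to 15.6%). The V end had lost 2.56 bases on average in WT and 2.84 in Btla-/- mice. By gene, TRAV7D-3 had lost 2.71 bases over 7 WT chains and 4.82 over 22 Btla-/- chains, and TRAV7N-5 had lost 1.92 and 1.88.

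Most TRAV7 chains were found in a single cell. The WT library held 229 and the Btla-/- library 278 distinct chains, of which 7 and 12 occurred in 2 cells each, and no chain occurred in a larger number of cells. That was 3.06% (1.24 to 6.20%) and 4.32% (2.25 to 7.42%) of distinct chains, beside 2.20% and 3.24% of other TRA chains. A TRB chain was recovered in both cells for 18 of these 19 chains, and in 12 the cells also had a TRB CDR3 sequence in common. Chains with a common TRB sequence mostly carried inserted bases, with a median of 3.5, and 1 of the 12 had none. Among the 6 chains whose cells had different TRB sequences, 4 had no inserted base. The first 4 CDR3 sequences below are these, all in lower case. The last, with a common TRB sequence, is shown for contrast, with its 8 inserted bases in capitals.
TRAV7-3 and TRAJ22, WT: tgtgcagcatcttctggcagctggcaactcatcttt
TRAV7-4 and TRAJ30, WT: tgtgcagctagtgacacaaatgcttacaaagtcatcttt
TRAV7N-5 and TRAJ58, WT: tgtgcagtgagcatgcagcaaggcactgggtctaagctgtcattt
TRAV7N-5 and TRAJ2, Btla-/-: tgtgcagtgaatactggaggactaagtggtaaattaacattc
TRAV7D-3 and TRAJ16, Btla-/-: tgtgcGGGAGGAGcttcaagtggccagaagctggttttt
The sample of 6 is small, and this split was seen in the data and was not tested.

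Chains of both libraries were also short of inserted bases. Among 227 WT and 273 Btla-/- CDR3 peptides of TRAV7 chains, 9 were found in both libraries, or 3.96% of the WT and 3.30% of the Btla-/- peptides. This overlap was not counted for other TRA chains, so it cannot be called high or low. The 19 chains that carried them had a median of 1 inserted base, against 3 in the other 507 TRAV7 chains. No inserted base was found in 6 of the 19, beside 69 of the 507. There were 2 whose nucleotides were also the same in both libraries, both without an inserted base.
TRAV7D-2 and TRAJ37, both libraries: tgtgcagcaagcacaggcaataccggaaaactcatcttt
TRAV7N-6 in WT and TRAV7-1 in Btla-/-, with TRAJ17: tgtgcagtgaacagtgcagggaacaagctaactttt
The second was thus called to a different TRAV7 gene in each library, and these genes have the same germline start of CDR3. None of the 19 chains lay on a cell barcode that occurred in both libraries.

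A TRB chain was recovered in 230 of 234 WT and 277 of 288 Btla-/- cells with a TRAV7 chain. TRBV13 was the most frequent TRBV subgroup among them, found in 19.6% (14.6 to 25.3%) of TRAV7 cells in WT and 22.0% (17.3 to 27.4%) in Btla-/-, beside 22.9% and 22.2% of cells with other TRA chains only. These shares include chains with the joint call TRBV12-2+TRBV13-2, and without them the TRAV7 shares were 13.5% and 12.6%, in the opposite order. TRBV12 had 12.2% and 10.5%, TRBV16 had 6.09% and 9.75%, and TRBV5 had 8.26% and 5.05%. The largest differences were in TRBV19, with 10.0% (6.45 to 14.6%) and 3.97% (1.999 to 6.99%), TRBV15, with 2.61% (0.963 to 5.59%) and 7.58% (4.75 to 11.4%), and TRBV20, with 1.74% (0.476 to 4.39%) and 5.78% (3.34 to 9.21%). Cells with other TRA chains had 8.11% and 6.10% for TRBV19, 6.24% and 5.49% for TRBV15, and 3.60% and 3.84% for TRBV20. The intervals of the libraries overlapped for every TRBV subgroup, for TRBV19 only narrowly, and no difference was tested. TRBV30 was found in no TRAV7 cell, which allows up to 1.30% in WT and 1.08% in Btla-/- mice by 3 counts of the total, or 1.59% and 1.32% by the exact interval.

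**Figure D5:**
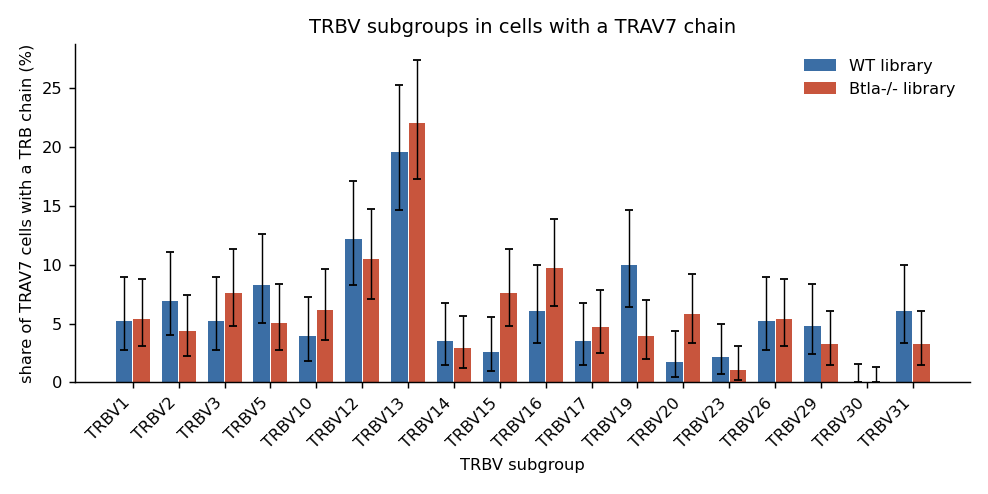
Share (%) of TRAV7 cells with a TRB chain that carried each TRBV subgroup, for 230 WT and 277 Btla-/- cells; bars are shares and whiskers are exact 95% intervals, and a cell with more than 1 TRB chain counts under each. TRBV13 stood highest in both libraries, TRBV19 was lower and TRBV15 and TRBV20 higher in the Btla-/- library, with overlapping intervals.

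Alpha chains can be rearranged on both chromosomes, so a cell may hold more than 1. A further TRA chain was found beside 18.2% (13.5 to 23.7%) of the TRAV7 chains in WT and 13.4% (9.74 to 17.9%) in Btla-/-. Other TRA chains had 16.8% (15.003 to 18.7%) and 12.6% (11.005 to 14.3%), with intervals that overlap those of TRAV7. Between the libraries the intervals overlapped for TRAV7 chains and lay apart for other TRA chains. A cell with more than 1 TRA chain enters these shares more than once, so the intervals are too narrow. Counted by cell, cells with other TRA chains only had 7.96% (6.63 to 9.46%) in WT and 5.63% (4.52 to 6.91%) in Btla-/-. These intervals overlap. Both TRA chains were TRAV7 in 4 cells, 2 in each library. These combined TRAV7-3 with TRAV7N-6 and TRAV7-5 with TRAV7D-4 in the WT library, and TRAV7-5 with TRAV7N-5 and TRAV7-4 with TRAV7-5 in the Btla-/- library. Droplets with 2 cells were not removed, and their part in these numbers was not tested.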

How the data were processed

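TCR contigs of thymic CD4 SP T cells from 1 WT and 1 Btla-/- library were analysed. The authors ran Cell Ranger 7.2.0 with a GRCm38-based V(D)J reference, and for every assembled contig they deposited its number of reads and of UMIs as raw counts that were not normalized. The WT library held 26700294 reads and 80347 UMIs, and the Btla-/- library 22026825 and 75456. The deposited summary tables were not used. TRA and TRB chains were counted per contig, and cells by library and barcode. The libraries had 30 barcodes in common, and 6 TRAV7 chains lay on them. V gene sequences and coordinates were read from RefSeq's GRCm38.p6 genome and annotation. Bases were assigned to the V end first, then to the TRAJ segment, and the rest counted as inserted, so inserted bases that match germline by chance are missed.

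Genes with at least 5% of TRAV7 chains in a library were described singly. Further named were the 5 most used TRAJ and 4 most used TRBV of a library, with the 3 largest differences among those of at least 3%, and the remaining TRAV7 genes for completeness. The members and lists were chosen with earlier results of these data known. Intervals are exact 95% binomial intervals and cover counting error only, since reads and UMIs of 1 library share its preparation. A share of 54.7% of 236 chains has an interval of 48.1 to 61.1%. Alternatives were contigs with at least 3 UMIs, 1 TRA chain per cell, cells with exactly 1 TRA and 1 TRB chain, distinct chains, barcodes of both libraries left out, other TRAJ boundaries, joint TRBV calls left out, copies of one number together, and the median length. The counting and the assignment of bases were tested on simulated data. Python 3.11.15, pandas 2.3.3, numpy 2.4.6, scipy 1.17.1 and matplotlib 3.10.9 were used.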

Additional observations from a re-analysis of the deposited data

How the results depend on the processing

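With 1 library per genotype the size of every difference is open to differences between mice and preparations. The shares of TRAV7, its genes and its copies, TRAJ1 to TRAJ30, the leading CDR3 starts, TRBV13, further TRA chains, the mean CDR3 length and the median UMIs were recomputed under the alternatives, and of 250 recomputed values 222 stayed within the 95% interval of the value reported. These values all stayed within it with 1 TRA chain per cell, in cells with exactly 1 TRA and 1 TRB chain, with distinct chains counted once, and without the barcodes of both libraries. Such alternatives kept most of the same chains, so staying within the interval was likely beforehand and is weak support. A value could also stay within its interval while the gap between the libraries changed, as for the D copies. Single TRAJ segments, other TRBV subgroups, inserted bases and repeated chains were not recomputed. With at least 3 UMIs, the TRAV7 share of WT TRA chains was 14.3% in place of 12.7%, and the median UMIs were 5 and 4 by construction. The gap in the D copies was then 10.3 points in place of 3.90. The TRAJ share was 28.4% (WT) and 42.8% (Btla-/-) for TRAJ1 to TRAJ20, with intervals apart. For TRAJ1 to TRAJ40 it was 76.7% and 83.8%, with overlapping intervals. With the WT gene mix it was 57.7% in the Btla-/- library, and this alternative and the one without TRAV7-6 were chosen after seeing the data. The gap between the libraries in the use of 3′ TRAJ segments was above 0 under all 9 alternatives and ranged from 3.07 to 14.8 percentage points. Among the 9 are TRAJ1 to TRAJ20 and TRAJ1 to TRAJ40, which do not measure TRAJ1 to TRAJ30. The smallest gap came with the WT gene mix and the largest with at least 3 UMIs. Without the joint call the TRBV13 shares were 13.5% and 12.6%. The median CDR3 length was 14 residues in both libraries. Joining copies of one number moved 16 of 22 gene shares, as it adds the copies' chains. Differences in use of TRAV7-3, TRAV7-4, TRAV7D-2, TRAV7N-5 and TRAV7N-6, and of the start with 2 alanines and serine, changed sign under at least 1 alternative. No paired analysis was possible because each genotype has 1 library. Depth limits members with under 15 chains in a library, whose intervals are wide.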
